A study of Mus musculus with 12 samples.

Results

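Foxp3 and 8 transcription factors that work beside it in regulatory T cells (Treg) were followed across all groups of the study, together with Ccdc22, a gene annotated tail to tail with Foxp3 that shares bases with it. The 10 genes, Foxp3, Ccdc22, Ikzf2, Ikzf4, Runx1, Cbfb, Bach2, Foxo1, Foxp1 and Satb1, were listed by name, as factors of Treg identity and the overlapping neighbour. All 10 were found among the 16232 genes of the in vivo table and the 24421 genes of the in vitro table, and all 10 passed the filter on low values in both.

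Treg are a class of CD4 T cell that keeps other immune cells in check, and Foxp3, a forkhead transcription factor, holds their gene programme in place. Foxp3 acts in complexes with other DNA-binding proteins, among them Runx1 with its partner subunit Cbfb and the Ikaros family members Ikzf2 (Helios) and Ikzf4 (Eos). Foxo1 and Foxp1 are forkhead factors needed for Treg function, Bach2 restrains effector programmes, and Satb1 is a chromatin organiser that acts early in Treg development and is held down by Foxp3. Ccdc22 is a subunit of the CCC and Commander complexes, which return membrane proteins from endosomes to the cell surface.

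The study sequenced polyA RNA of mouse Treg, with spleen and lymph nodes given as the tissue, in 12 libraries that form 6 groups of 2. Wild-type mice (WT) were compared with mice carrying a conditional knockout (cKO) of Kdm2b, the CpG-binding subunit of the Polycomb complex PRC1.1, each in vivo, in vitro without stimulation and in vitro with stimulation. The promoter that drives the Cre, the strain and age of the mice, the stimulus, and whether each library came from its own animal or culture are not given in the sources used here. P-values below therefore measure the spread between libraries, which could be technical only. With 2 libraries per group, full separation of groups can arise without a true difference. How many of all genes separate was not counted, so separation below is a description only.

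Values are FPKM, fragments scaled to transcript length and library size, as deposited in a table for the in vivo and another for the in vitro libraries, so levels of different genes can be set side by side within a table. Read depth is unknown. The FPKM of a library summed to between 461753 and 475374 in vivo and between 369720 and 438763 in vitro, and the WT replicate 2 libraries in vitro listed more genes at 0 (12379 and 13273) than the other in vitro libraries (9102 to 9857). Treg markers were detected in all libraries. Il2ra, the interleukin 2 receptor alpha chain, was at 98.2 to 154 FPKM in vivo and 81.9 to 408 in vitro. Ctla4, an inhibitory receptor, was at 892 to 1189 in vivo and 296 to 516 in vitro. The study holds no library of other T cells to compare with, so these levels do not check the Treg label. Kdm2b itself was not lower in cKO over the whole gene in vivo: the WT libraries were at 112.6 and 110.4 FPKM and both cKO libraries lay higher, at 146.5 and 125.4 (log2 fold change 0.28, limma unadjusted p = 0.0363, adjusted p = 0.354). Unstimulated it was at 84.9 and 94.9 FPKM in WT libraries and 89.8 and 97.4 in cKO libraries, which overlap, and stimulated the cKO libraries (66.3 and 70.5) lay just below the WT libraries (74.5 and 71.7). The Kdm2b level does not check the genotype label, because such an allele can lose some exons and still be transcribed over the rest. Erythroid, B cell and myeloid transcripts differed between the in vitro genotypes and are given beside the results they accompany.

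Foxp3 lies on the X chromosome of the mouse (GRCm38, 7573644 to 7595245, plus strand), and Ccdc22 lies at 7593809 to 7605517 on the minus strand, so that the genes meet tail to tail. They overlap over 1437 bp, from 7593809 to 7595245. In exons the overlap is 590 bp, which is 12.89% of the annotated exon bases of Foxp3 and 17.22% of those of Ccdc22. It takes in 342 of the 1881 coding bases of Ccdc22 and 0 coding bases of Foxp3. How the counting treated strand was not given in the sources used here, and without strand, reads from the shared stretch cannot be told apart.

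Kdm2b reaches DNA through a zinc finger that recognises CG dinucleotides without methylation, so the upstream sequences of the X-linked pair are shown with each CG in capitals. Both are RefSeq windows of GRCm38.p6 that cover the 250 bases before an annotated start, written 5′ to 3′ on the gene's own strand, at chrX:7579426-7579675 (plus strand) for Foxp3 and chrX:7605421-7605670 (minus strand) for Ccdc22.
Foxp3: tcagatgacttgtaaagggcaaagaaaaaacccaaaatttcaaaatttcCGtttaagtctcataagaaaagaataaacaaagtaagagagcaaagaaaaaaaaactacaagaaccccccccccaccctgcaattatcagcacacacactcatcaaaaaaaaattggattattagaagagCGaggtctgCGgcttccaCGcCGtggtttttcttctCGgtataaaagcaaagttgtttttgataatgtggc
Ccdc22: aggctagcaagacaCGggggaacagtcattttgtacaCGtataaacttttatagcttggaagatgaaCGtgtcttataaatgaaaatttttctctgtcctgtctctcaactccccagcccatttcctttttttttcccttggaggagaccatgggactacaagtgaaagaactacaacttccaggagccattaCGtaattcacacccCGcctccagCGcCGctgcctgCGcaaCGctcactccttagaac
The Foxp3 window holds 6 CG and 37.6% G or C, and the Ccdc22 window holds 9 CG and 46.4% G or C, where the median over all 32851 windows of this length is 6 CG. A second Foxp3 window, at chrX:7580233-7580482, holds 7. Among the partners, single windows hold 25 CG for Cbfb, 20 for Foxo1 and 7 for Bach2, and the several windows of Runx1 range from 2 to 27, of Foxp1 from 3 to 34 and of Satb1 from 3 to 41. RefSeq windows were matched for 8 of the 10 genes, all but Ikzf2 and Ikzf4. Searched on both strands, GGAAA, the core bound by NFAT, occurs in the Foxp3 windows and in the Ccdc22 window, as it does in 55.57% of all windows. The AP-1 letters TGANTCA (6.75% of all windows), the RUNX letters TGTGGT (14.05%) and the forkhead letters TGTTTAC (3.17%) occur in no window of the matched genes. These matches describe the letters only.

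In vivo, the first question is whether Treg taken from cKO mice differ in these factors. Foxp3 was at 106.6 and 105.8 FPKM in the WT libraries and at 113.9 and 117.3 in the cKO libraries. Both cKO libraries lay just above both WT libraries, by 0.12 on the log2(FPKM + 1) scale, and the difference did not pass (95% interval -0.09 to 0.33, limma adjusted p = 0.582). Ccdc22 was at 9.81 and 10.4 FPKM in WT, with cKO at 10.4 and 10.3, overlapping groups with a log2 fold change of 0.03 (adjusted p = 0.931).

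The Ikaros family partners differed more in vivo. Ikzf2 was at 47.4 and 45.6 FPKM in WT, with cKO at 66.4 and 56.5, and Ikzf4 at 31.2 and 29.4 in WT and at 40.4 and 39.9 in cKO. For both genes each cKO library lay above each WT library. The log2 fold changes, 0.39 for Ikzf2 (95% interval 0.12 to 0.66, limma adjusted p = 0.257) and 0.40 for Ikzf4 (0.15 to 0.64, adjusted p = 0.195), did not pass over all genes tested. Satb1 was at 180.7 and 181.5 FPKM in WT, with cKO at 269.4 and 209.6, a log2 fold change of 0.39 with a wide spread between the cKO libraries (adjusted p = 0.297). Foxo1 was at 129.0 and 131.2 FPKM in WT, with cKO at 100.1 and 111.2, a log2 fold change of -0.30 (adjusted p = 0.289), with both cKO libraries below both WT libraries.

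The remaining factors had overlapping groups in vivo. Runx1 ranged from 24.0 to 26.6 FPKM in WT and from 23.8 to 31.4 in cKO, and its subunit Cbfb from 33.1 to 33.9 in WT and from 33.3 to 38.3 in cKO. Bach2 ranged from 17.7 to 19.5 FPKM in WT and from 18.5 to 20.9 in cKO. Foxp1 was at 64.0 and 60.3 FPKM in WT, with cKO at 75.1 and 52.9, so the cKO libraries lay on either side of WT. Their log2 fold changes were between 0.02 for Foxp1 and 0.11 for Runx1, none past the threshold.

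With limma, 0 of the 10 genes passed in vivo at an adjusted p under 0.05, where 0.374% of the 10415 genes tested did (39 genes; 1350 had an unadjusted p under 0.05, as had Ikzf2, Ikzf4, Foxo1 and Satb1). The median log2 fold change was 0.10 over the 10 genes and -0.02 over all genes tested. Transcripts of other cells differed in vivo too: 15 of 15 tested B cell markers were below 0 in cKO over WT. Their sums over the 17 listed in the table were 277 to 381 FPKM in cKO and 612 to 713 in WT. Of 11 conventional CD4 T cell markers tested, 9 were below 0 and 2 above, and Cd40lg alone passed and was lower. The sums over the 12 listed were nevertheless higher in cKO, at 450 to 461 FPKM against 420 to 443 in WT. Of 16 myeloid markers tested, 12 were below 0 and 4 above, and 0 passed. The part of these transcripts in the values above was not tested. Calls changed when the second cKO library in the table's order was left out, a step that changed the estimate of spread as well as the compared libraries. Without it, Ikzf2 (0.50, limma adjusted p = 0.00959), Ikzf4 (0.40, 0.0244), Satb1 (0.57, 0.00527) and Foxo1 (-0.37, 0.0194) passed, in a fit that called 1994 of 10368 genes and assumed that the lone cKO library varied like the WT libraries.

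**Figure D1:**
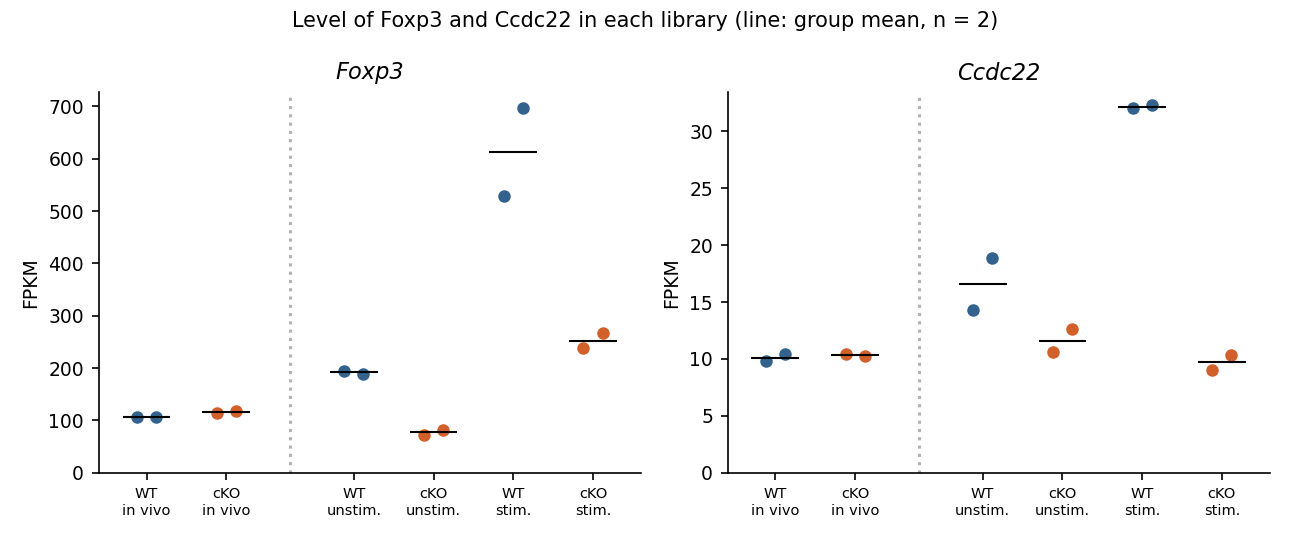
Level of Foxp3 and Ccdc22 in FPKM (vertical axis) in each library, by group; points are libraries (blue WT, orange cKO), lines are means of 2, and the dotted line separates tables that were normalized separately. Foxp3 lies between 71.5 and 82.6 in unstimulated cKO libraries, below the WT libraries at 189.1 and 194.3, and Ccdc22 is highest in stimulated WT libraries, at 32.0 and 32.3.

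In vitro, Foxp3 stood lower in cKO Treg in both conditions. Unstimulated, it was at 194.3 and 189.1 FPKM in WT, with cKO at 71.5 and 82.6. Stimulated, it was at 529.0 and 696.3 FPKM in WT, with cKO at 237.6 and 267.5. In each condition both cKO libraries lay far below both WT libraries, and the stimulated cKO libraries lay above the unstimulated WT libraries, as the plot of Foxp3 and Ccdc22 by library shows.

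Averaged over both conditions, Foxp3 fell in cKO by 1.29 on the log2(FPKM + 1) scale (SE 0.12, 95% interval -1.56 to -1.01, limma adjusted p = 0.00722), a 2.44-fold lower level that ranked 8th by p among 10710 genes. Within a condition, the log2 fold change was -1.31 unstimulated (adjusted p = 0.0636) and -1.26 stimulated (adjusted p = 0.0769), and neither passed alone. The averaged call was lost without stimulated cKO replicate 1 (adjusted p = 0.0542). Same-numbered libraries of a genotype share features (both cKO replicate 1 libraries hold the most haemoglobin, both WT replicate 2 libraries list the most genes at 0), so 2 sources per genotype, not 4, may stand behind the averaged contrast. With same-numbered libraries averaged first, 2 values per genotype, Foxp3 stayed at -1.29 and was not called (adjusted p = 0.119, with 0 of 10710 genes called). Unstimulated, Foxp3 passed when either stimulated WT library was left out. Those libraries are not in that contrast, so the shared estimate of spread changed and not the compared libraries. Without stimulated WT replicate 1, the stimulated log2 fold change was -1.46, with 1 library left in that group.

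Ccdc22 was lower in cKO as well. Unstimulated, it was at 14.3 and 18.9 FPKM in WT, with cKO at 10.6 and 12.6, and stimulated at 32.0 and 32.3 in WT and at 9.05 and 10.4 in cKO. Each cKO library lay below each WT library of its condition, with little room between them when unstimulated. Averaged over both conditions, Ccdc22 fell by 1.05 on the log2 scale (SE 0.14, 95% interval -1.37 to -0.74, limma adjusted p = 0.0177). The log2 fold change was -0.47 unstimulated (adjusted p = 0.711) and -1.63 stimulated (adjusted p = 0.0659). The averaged call was lost without any 1 of the cKO libraries: the adjusted p was 0.12 and 0.074 without unstimulated replicates 1 and 2, and 0.113 and 0.0824 without stimulated replicates 1 and 2. It was also lost with no filter on low values (adjusted p = 0.0577) and with same-numbered libraries averaged first (adjusted p = 0.172). The stimulated difference passed when either unstimulated WT library was left out. Those libraries are not in that contrast, so the shared estimate of spread changed and not the compared libraries. It also passed without stimulated WT replicate 1, a fit that left 1 library in that group.

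With limma, Foxp3 and Ccdc22 were the 2 of the 10 genes called in the averaged contrast, where 1.08% of all genes tested were called. Within the unstimulated condition 0 of the 10 passed (0.0747% of all genes; 703 at an unadjusted p under 0.05), and within the stimulated condition 0 of the 10 (0.0187% of all genes; 1508 at an unadjusted p under 0.05). The median log2 fold change of the 10 genes in the averaged contrast was -0.03, beside -0.01 over all genes.

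Transcripts of other cells moved with genotype in vitro. Counts and medians here are for the contrast averaged over both conditions, where 1.08% of all genes tested were called. Unstimulated alone, 3 B cell, 1 erythroid and 0 myeloid markers passed, and stimulated alone 1, 0 and 0. Of 16 B cell markers tested, 16 were above 0 in cKO over WT and 14 passed, and the sum over the 17 listed in the table was 1263 to 1632 FPKM in cKO libraries and 307 to 568 in WT libraries. Of 7 erythroid markers tested, 7 were above 0 and the haemoglobin genes Hba-a2, Hbb-bs and Hbb-bt passed, with sums over the 9 listed of 5105 to 51194 FPKM in cKO and 11.4 to 1689 in WT. Of 13 myeloid markers tested, 13 were above 0 and 2 passed, with sums over the 16 listed of 159 to 473 FPKM in cKO and 118 to 164 in WT. The B cell marker Fcrla was listed at 0 in both WT replicate 2 libraries, with Cr2 and Cd22 also at 0 in the stimulated one, and the haemoglobin gene Hbb-bs at 0 in both unstimulated WT libraries, where Klf1 was also at 0. Of 7 CD8 T and NK cell markers tested, 5 were above 0 and 2 below, with a median of 0.86, and 0 passed. Of 11 conventional CD4 T cell markers, 7 were above 0 and 4 below, with a median of 0.26, and 0 passed. The haemoglobin share was highest in the cKO replicate 1 libraries, and without both of them Foxp3 was at -1.19 (limma adjusted p = 0.215) and Ccdc22 also missed the threshold (adjusted p = 0.487), in a fit that called 0 genes in all. Bach2, Foxo1 and Foxp1 are also transcribed by B cells, and the part of other cells in the values of the 10 genes was not tested. In a bulk library, fewer Treg and less Foxp3 RNA in each Treg cannot be told apart.

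Foxp3 set against other T cell genes within each library gives a measure that does not use the library total. The 15 T cell reference genes in the table, such as Cd3e and Lck, summed to 2151 to 2464 FPKM in vitro, with a median log2 fold change of -0.02 in cKO over WT and 0 of 15 called. Foxp3 divided by their geometric mean (of FPKM + 1) was 1.41 and 1.58 in unstimulated WT, 0.573 and 0.672 in unstimulated cKO, 4.24 and 5.25 in stimulated WT, and 1.90 and 2.12 in stimulated cKO. The cKO libraries were below the WT libraries in both conditions. On stimulation averaged over both genotypes, 4 of the 15 reference genes were called higher and 3 lower, where 12.4% of all genes were called. The ratio is therefore not compared between conditions. In vivo the ratio was 0.454 and 0.430 in WT libraries, with both cKO libraries higher at 0.527 and 0.504. With libraries scaled to these genes the averaged log2 fold change of Foxp3 in vitro was -1.24 (limma adjusted p = 0.0089), and with the haemoglobin genes removed it was -1.25 (adjusted p = 0.00796).

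Ccdc22 did not keep a fixed proportion to Foxp3. Ccdc22 as a percentage of Foxp3 FPKM was 7.345 and 9.9998 in unstimulated WT and 14.9 and 15.2 in unstimulated cKO. Stimulated, it was 6.05 and 4.64 in WT libraries, with the cKO libraries at 3.81 and 3.88. The cKO libraries were therefore higher than WT when unstimulated and lower when stimulated. In vivo the percentage was 9.20 and 9.86 in WT libraries, with the cKO libraries at 9.16 and 8.75.

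**Figure D2:**
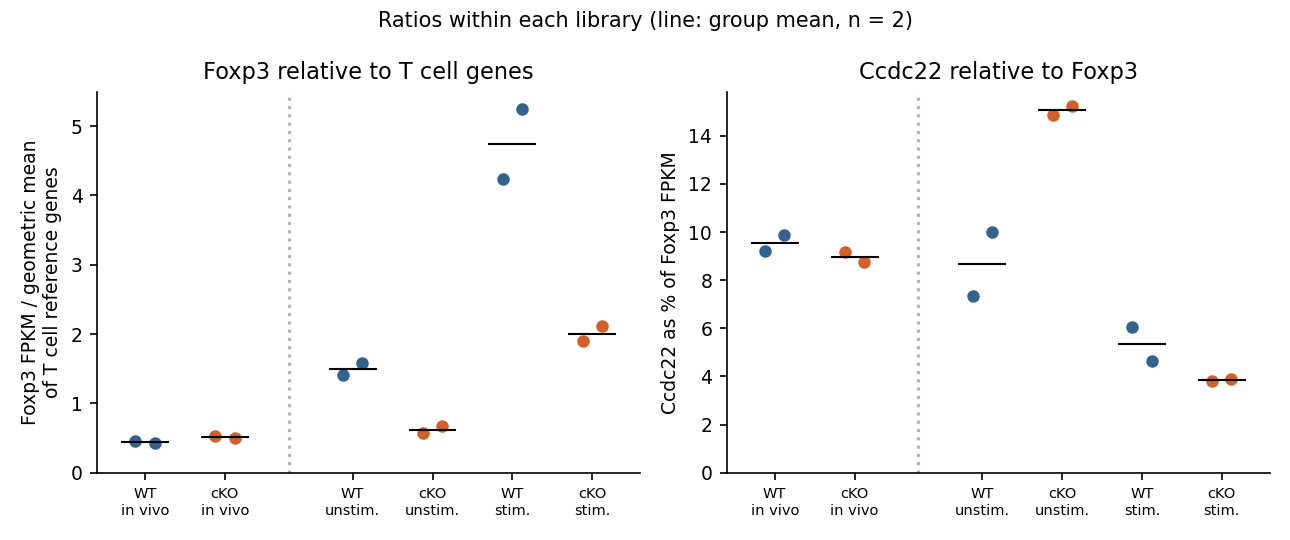
Foxp3 FPKM divided by the geometric mean of the T cell reference genes (left) and Ccdc22 as a percentage of Foxp3 FPKM (right) in each library; points are libraries (blue WT, orange cKO) and lines are means of 2. The left ratio is 0.573 and 0.672 in unstimulated cKO against 1.41 and 1.58 in WT, and the right percentage runs from 3.81 in a stimulated cKO library to 15.2 in an unstimulated one.

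Of the Ikaros partners, Ikzf2 was at 38.9 and 68.3 FPKM in unstimulated WT against 76.8 and 69.4 in unstimulated cKO, and at 57.2 and 72.9 in stimulated WT and 86.3 and 93.8 in stimulated cKO. The cKO libraries were above the WT libraries in both conditions, but unstimulated WT replicate 2 lay close to cKO. Averaged, the log2 fold change was 0.48 (95% interval 0.07 to 0.90, limma adjusted p = 0.244). Of the alternatives run, it passed in the fit without both WT replicate 2 libraries (0.77, adjusted p = 0.032). Ikzf4 was at 33.8 and 50.3 FPKM in unstimulated WT against 60.7 and 63.1 in unstimulated cKO, a log2 fold change of 0.57 (adjusted p = 0.618). Stimulated, its groups overlapped, at 73.1 and 89.2 FPKM in WT and 82.3 and 83.0 in cKO (0.03, adjusted p = 0.954).

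Foxo1, the forkhead factor that also supports Foxp3 transcription, lay lower in cKO in every setting. It was at 106.5 and 103.1 FPKM in unstimulated WT against 90.0 and 86.4 in unstimulated cKO, and at 91.7 and 101.9 in stimulated WT and 78.9 and 81.4 in stimulated cKO. The groups did not overlap in either condition, and the averaged log2 fold change of -0.26 (95% interval -0.46 to -0.05) did not pass (limma adjusted p = 0.213). Satb1 was at 88.3 and 85.9 FPKM in unstimulated WT against 96.6 and 90.7 in unstimulated cKO, and at 103.7 and 78.2 in stimulated WT and 114.1 and 113.3 in stimulated cKO. Its averaged log2 fold change was 0.22 (adjusted p = 0.391), with the stimulated WT libraries far apart. The unstimulated Satb1 groups did not overlap either, at a limma unadjusted p of 0.528.

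Averaged over both conditions, the RUNX pair and the other 2 factors lay closest to 0 between genotypes. Runx1 lay between 12.8 and 16.8 FPKM and Cbfb between 50.3 and 70.4 FPKM over the 8 in vitro libraries. Their averaged log2 fold changes were -0.18 (95% interval -0.47 to 0.10) for Runx1 and 0.02 (-0.25 to 0.29) for Cbfb. Bach2 lay between 20.8 and 38.4 FPKM, with an averaged log2 fold change of 0.19 (-0.13 to 0.50), and Foxp1 between 43.6 and 58.7 FPKM, with -0.08 (-0.35 to 0.20). None of these 4 passed. Unstimulated, the groups of Runx1 (-0.19) and Foxp1 (-0.15), lower in cKO, and of Bach2 (0.27), higher in cKO, did not overlap, and none passed.

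**Figure D3:**
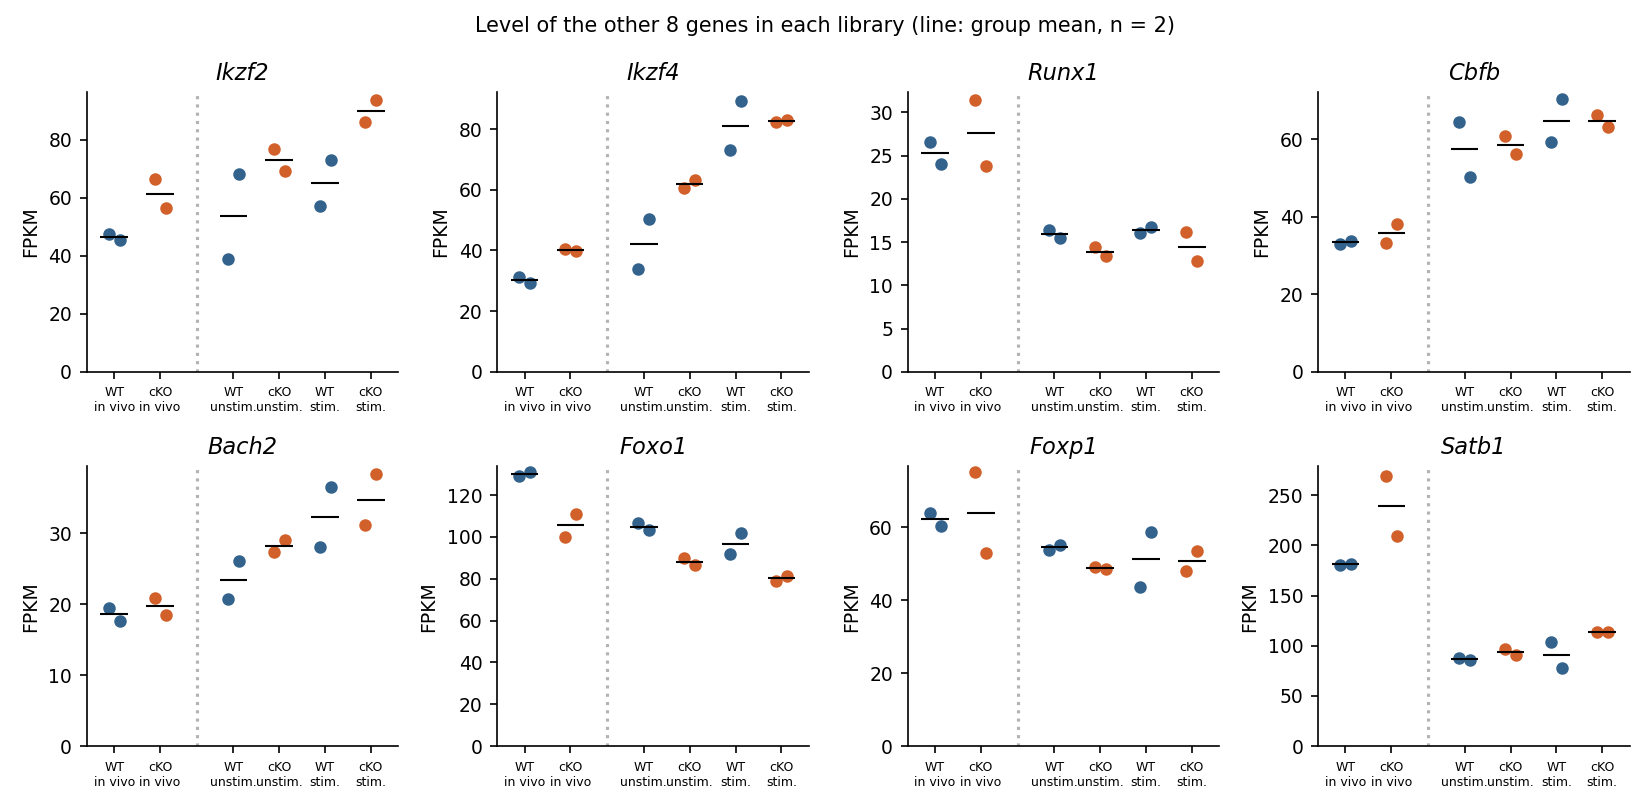
Level of the other 8 genes in FPKM (vertical axis, from 0) in each library by group; points are libraries (blue WT, orange cKO), lines are means of 2, and the dotted line separates tables that were normalized separately. Ikzf2 and Ikzf4 lie higher in the cKO libraries in vivo, Foxo1 lies lower in cKO in all 3 settings, and Satb1 in vivo runs from 180.7 to 269.4.

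The second question in vitro is how stimulation acted on these genes. Foxp3 rose in WT by 1.66 on the log2 scale (limma adjusted p = 0.00439) and in cKO by 1.70 (adjusted p = 0.00363), from the levels given above, with no overlap in either genotype. Averaged over both genotypes it rose by 1.68 (SE 0.12, adjusted p = 0.000309), to a 3.20-fold higher level. The cKO call was lost without unstimulated cKO replicate 2 (adjusted p = 0.0518) or stimulated cKO replicate 2 (0.0599). The interaction, the response in cKO minus that in WT, was 0.04 for Foxp3 (95% interval -0.51 to 0.59, adjusted p = 0.999), an interval that still allows responses differing by up to 0.59 on the log2 scale.

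Ikzf4 was the other gene called. Averaged over both genotypes it rose by 0.68 on the log2 scale (SE 0.14, limma adjusted p = 0.0204). Its WT libraries gave a log2 fold change of 0.95 (adjusted p = 0.0543) and its cKO libraries 0.41 (adjusted p = 0.282), and the interaction of -0.54 did not pass (adjusted p = 0.999). The averaged call was lost without any 1 of the cKO libraries (adjusted p of 0.0712 and 0.0759 without unstimulated replicates 1 and 2, and 0.0784 and 0.0826 without stimulated replicates 1 and 2) and without stimulated WT replicate 2 (0.0573), and with no filter on low values (0.0556).

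Ccdc22 had responses of opposite sign in the genotypes, and neither response nor their difference passed. Stimulated over unstimulated, its log2 fold change was 0.93 in WT (limma adjusted p = 0.0533), with both stimulated libraries above both unstimulated ones, and -0.23 in cKO (adjusted p = 0.542), with both stimulated libraries below. The interaction was -1.16 (95% interval -1.79 to -0.53, unadjusted p = 0.00279) and ranked 12th among 10710 genes, but did not pass over all genes (adjusted p = 0.999). The WT difference passed without unstimulated WT replicate 2 (1.12, adjusted p = 0.0466).

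Of the 10 genes, limma called 1 in WT (Foxp3; 2.43% of all genes tested), 1 in cKO (Foxp3; 4.58% of all genes) and 2 in the average over both genotypes (Foxp3 and Ikzf4; 12.4% of all genes). The interaction gave 0 of 10, and 0% of all genes passed there, with 380 at an unadjusted p under 0.05. In the averaged contrast the median log2 fold change was 0.24 over the 10 genes and -0.10 over all genes tested, and rescaling to a common sum brought the median of all genes to 0.00. Bach2 (0.37, adjusted p = 0.119), Ikzf2 (0.31, 0.288), Satb1 (0.16, 0.362) and Cbfb (0.16, 0.387) lay above 0 without passing. Runx1 (0.04), Foxp1 (-0.03) and Foxo1 (-0.13) lay nearer 0. Ikzf2 passed without unstimulated WT replicate 2 (0.51, adjusted p = 0.0391).

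**Figure D4:**
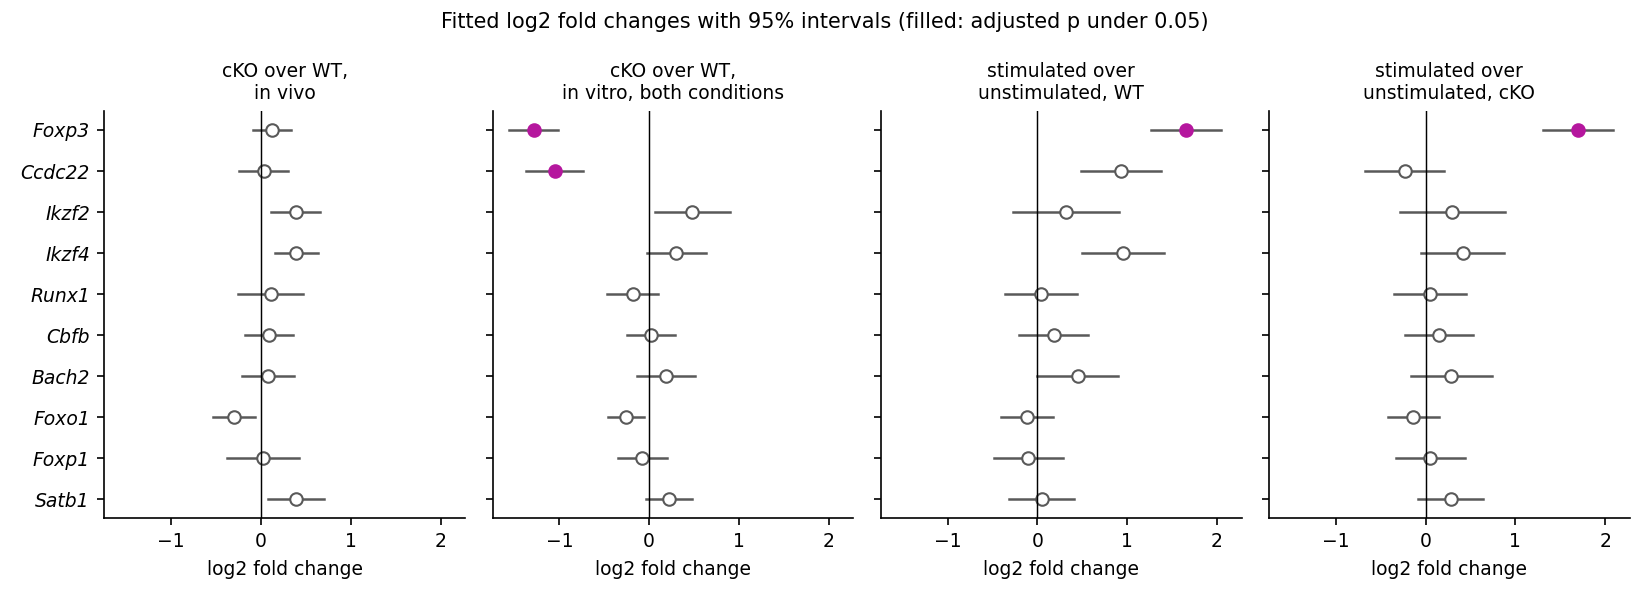
Fitted log2 fold change of FPKM + 1 (horizontal axis) with its 95% interval (bar) for each of the 10 genes in 4 contrasts; filled points had a limma adjusted p under 0.05. Foxp3 (-1.29) and Ccdc22 (-1.05) are the filled points for genotype in vitro, Foxp3 (1.66 and 1.70) those for stimulation, and none is filled in vivo.

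The order of levels within a group is a description on the FPKM scale. In vivo, Satb1 stood highest (181.1 ± 0.52 FPKM in WT and 239.5 ± 42.3 in cKO, SD, n = 2) and Ccdc22 lowest, and Foxo1 and Foxp3 held the next ranks, with Foxo1 above Foxp3 in WT and Foxp3 above Foxo1 in cKO. In the unstimulated cKO group, Foxp3 (77.0 ± 7.89 FPKM) came after Satb1 (93.7 ± 4.19) and Foxo1 (88.2 ± 2.56), and its libraries overlapped those of Ikzf2 (73.1 ± 5.25), the next in order. In the unstimulated WT group Foxp3 was first (191.7 ± 3.72), well apart from Foxo1 (104.8 ± 2.39). Foxp3 was first in both stimulated groups, at 612.6 ± 118 FPKM in WT and 252.6 ± 21.2 in cKO.

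Relative standing among the genes in both tables gives a description across the separately normalized tables. Foxp3 was between percentiles 96.02 and 96.61 in the in vivo libraries and between 94.99 and 99.55 in vitro. Runx1 stood lower in vitro (69.6 to 75.0) than in vivo (80.4 to 85.0), whereas Cbfb stood higher (92.0 to 94.8 against 85.6 to 87.6). Satb1 was at 97.7 to 98.7 in vivo and 95.5 to 97.4 in vitro, and Ccdc22 at 64.1 to 65.3 in vivo and 63.3 to 86.3 in vitro. The tables differ in normalization, so no test was made.

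Neighbouring genes place the pair on its chromosome. Within 200 kb of Foxp3, the annotation holds 27 genes, 16 of them protein-coding, and 12 of these were tested in vitro. Foxp3 and Ccdc22 were the 2 called for genotype in the averaged contrast, and the other 10 lay between -0.56 for Praf2 (limma adjusted p = 0.235) and 1.06 for Syp (adjusted p = 0.283). For stimulation averaged over both genotypes, Usp27x, a deubiquitinase gene, rose by 1.77 (adjusted p = 0.00431) and Wdr45, an autophagy gene, fell by 0.69 (adjusted p = 0.0221). Flicr, a non-coding RNA that starts at the 5′ end of Foxp3 on the same strand and whose reads may be shared with it, rose by 1.01 (adjusted p = 0.0179). Between genotypes Flicr was at 1.82 and 2.1003 FPKM in unstimulated WT and 2.36 and 1.96 in unstimulated cKO, and at 5.55 and 3.39 in stimulated WT and 5.44 and 6.64 in stimulated cKO, a log2 fold change of 0.24 (adjusted p = 0.608). Its unstimulated groups overlapped, and so did its stimulated groups. The stimulation call of Flicr was lost without any 1 cKO library (adjusted p up to 0.0954), and that of Wdr45 without unstimulated cKO replicate 2, either stimulated cKO library, unstimulated WT replicate 1 or stimulated WT replicate 2 (up to 0.098).

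**Figure D5:**
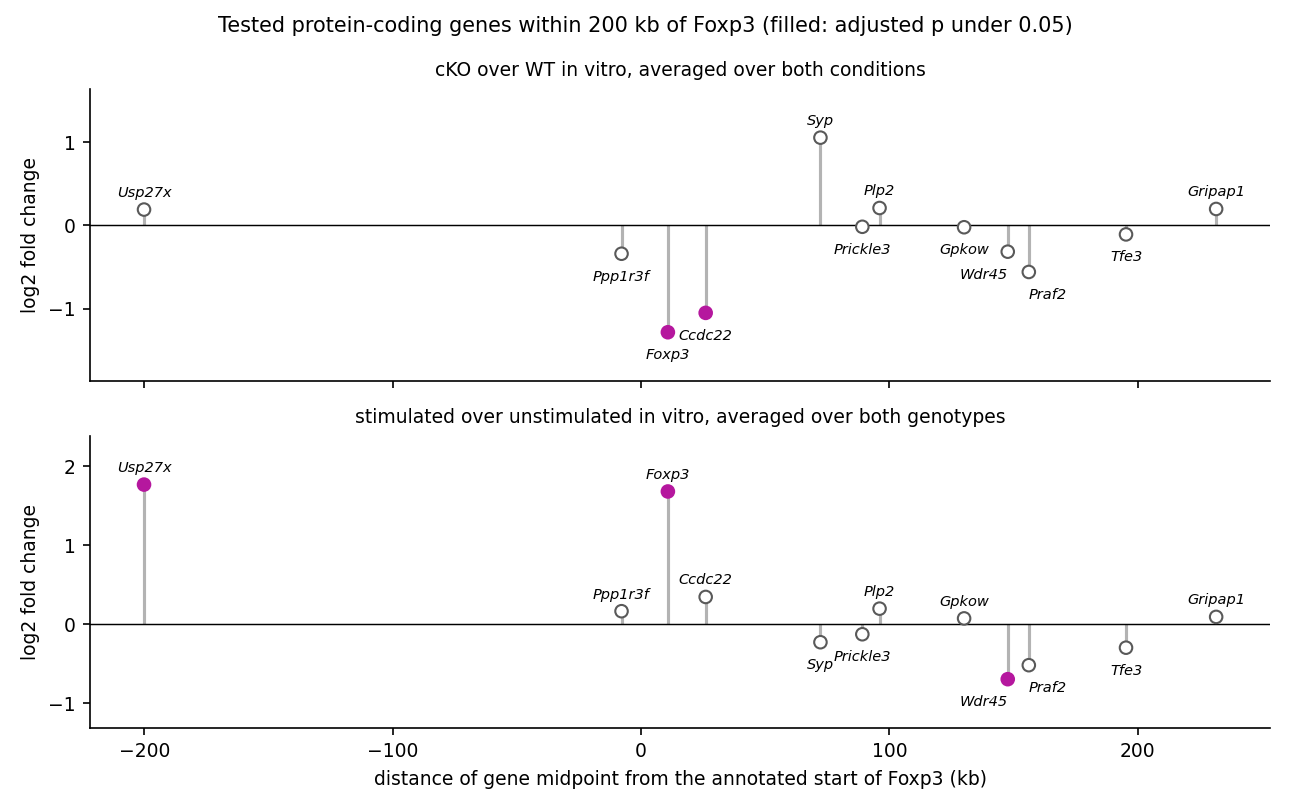
Fitted log2 fold change (vertical axis) of the 12 tested protein-coding genes within 200 kb of Foxp3 against the distance of each gene's midpoint from the annotated start of Foxp3 in kb; filled points had a limma adjusted p under 0.05. Foxp3 (-1.29) and Ccdc22 (-1.05) are filled for genotype, and Foxp3 (1.68), Usp27x (1.77) and Wdr45 (-0.69) for stimulation.

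The genes whose pattern over the 8 in vitro libraries lay nearest to that of Foxp3, out of 7647 genes, were Il10ra, Trat1, Cish, Tnfrsf8 and Osm. Likeness was the root mean square distance between centred log2(FPKM + 1) values, 0.23 for Il10ra, 0.39 for Trat1 and Cish, and 0.45 for Tnfrsf8 and Osm, where the median over all genes was 1.11. Il10ra, a chain of the interleukin 10 receptor, was at 11.5 and 16.5 FPKM in unstimulated WT, 5.91 and 6.14 in unstimulated cKO, 31.6 and 49.1 in stimulated WT, and 14.8 and 18.7 in stimulated cKO. Its cKO libraries lay below the WT libraries of the same condition and its stimulated libraries above the unstimulated ones of the same genotype; the choice of the gene fixed this pattern, so no test is given. Trat1, a T cell receptor adaptor, is also in the reference list above, and Cish is a feedback inhibitor of cytokine signalling. The genes nearest to Ccdc22 were Nrn1, Chst2, Rgs1, Frat2 and Slc25a25, at distances of 0.22 to 0.32 against a median of 0.68. Those nearest to Satb1 were Cog2, Tnrc18, Nup188, Cstf2 and Rbbp5, at 0.06 to 0.09 against a median of 0.34, and Satb1's own values spread by only 0.18 around their mean.

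Beyond the 10 genes, relatives of the same families were compared, in contrasts where 0.374% of all genes tested were called in vivo, 1.08% for genotype averaged in vitro and 12.4% for averaged stimulation. Of 11 listed relatives of the Ikaros, RUNX, FOXO, FOXP, BACH and SATB families, 9 were tested and 0 passed in vivo, 0 for genotype in vitro and 0 for stimulation, with medians of 0.31, 0.12 and 0.17. Runx3 (0.56, limma adjusted p = 0.132) and Runx2 (0.57, adjusted p = 0.215) had the smallest p in vivo, and Runx2 (0.64, adjusted p = 0.108) for genotype in vitro.

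Genes that act on Foxp3 came next. Of 20 factors known to activate the Foxp3 locus, 0 passed for genotype in vivo or in vitro, with medians of 0.08 and 0.00. The nearest in vitro was Nfatc1, a calcium-responsive factor (0.48, limma adjusted p = 0.0689). On stimulation, averaged over both genotypes, Myb rose by 1.63, the TCR-induced nuclear receptor Nr4a3 by 0.74 and Gata3 by 0.61, while Stat5a, a transducer of interleukin 2 signals, fell by 0.47. Gata3 lost its call without unstimulated cKO replicate 2 or either stimulated cKO library (adjusted p up to 0.0708), and Stat5a without any 1 of the 8 libraries (up to 0.171). Of 11 tested genes for turnover and modification of the Foxp3 protein, 0 passed for genotype. In vitro 4 of the 11 lay below 0 in cKO over WT unstimulated, with a median of 0.00 beside 0.02 over all genes tested. Stimulated, 10 lay below 0, with a median of -0.26 beside -0.05 over all genes. Cdk2 fell by 0.85 and the deubiquitinase gene Usp21 by 0.59 on stimulation. Of 7 tested DNA methylation genes 0 passed for genotype, and Tet2, which oxidises methylated cytosine, rose on stimulation by 1.15. Cdk2 lost its call without any 1 cKO library or either unstimulated WT library (adjusted p up to 0.138), Usp21 without any 1 cKO library, unstimulated WT replicate 1 or stimulated WT replicate 2 (up to 0.125), and Tet2 without any 1 cKO library or stimulated WT replicate 2 (up to 0.124).

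Of 28 protein partners and cofactors of Foxp3, 0 passed for genotype in vivo or in vitro, with medians of 0.01 and 0.03, and the deacetylase gene Hdac7 came nearest in vitro (0.70, limma adjusted p = 0.07). On stimulation 5 rose and 1 fell, where 12.4% of all genes tested were called. Ezh2, the methyltransferase of Polycomb complex PRC2, rose by 2.33, Irf4 by 1.74, Hif1a by 1.32 and Tbx21, which encodes T-bet, by 0.93. The call of Tbx21 was lost without either unstimulated cKO library, stimulated cKO replicate 1 or stimulated WT replicate 2 (adjusted p up to 0.115).

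Genes known as Foxp3 targets were compared between the genotypes and on stimulation. Of 21 genes that are raised in Treg, 3 passed in the averaged in vitro contrast, where 1.08% of all genes did: the adaptor gene Swap70 rose by 0.88 (limma adjusted p = 0.0224) and the cytokine feedback inhibitor Socs2 by 1.34 (0.0131) in cKO, and Nt5e, which encodes the ectoenzyme CD73, fell by 0.60 (0.0259). Each call was lost without some single libraries: Socs2 without unstimulated cKO replicate 1 or either stimulated cKO library (adjusted p up to 0.0921), Swap70 without any 1 cKO library (up to 0.123), and Nt5e without any 1 cKO library or either WT replicate 2 library (up to 0.155). With same-numbered libraries averaged first none of the 3 was called (adjusted p of 0.144 for Socs2, 0.205 for Swap70 and 0.21 for Nt5e). The list's median was -0.18, with 14 genes below 0 and 7 above. In vivo 0 of the 21 passed, with Swap70 at 0.90 (adjusted p = 0.061). On stimulation, where 12.4% of all genes were called, 12 rose and 2 fell, among them Gpr83 (4.09), Socs2 (2.01), Il2ra (1.83) and the co-stimulatory receptor gene Icos (1.28), with a median of 0.62. Of 13 tested genes that Foxp3 holds down, 0 passed for genotype in vivo or in vitro. On stimulation Il4 and Ifng, which encode helper cytokines, rose by 1.76 and 0.99, and 4 fell, among them Tcf7, a factor of resting T cells, by 1.64 and the interleukin 7 receptor gene Il7r by 1.11. Il4 lost its call without either unstimulated cKO library, stimulated cKO replicate 1 or unstimulated WT replicate 1 (adjusted p up to 0.0832), Ifng without any 1 library except stimulated WT replicate 1 (up to 0.134), and Il7r without unstimulated cKO replicate 1, stimulated cKO replicate 2, either unstimulated WT library or stimulated WT replicate 2 (up to 0.0908).

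For Ccdc22, the 15 other subunits of the CCC and Commander complexes gave 0 calls for genotype in vivo and in vitro. In vitro 12 lay below 0 and 3 above, with a median of -0.12, and Commd9 had the smallest p (-1.01, limma adjusted p = 0.139). On stimulation 5 fell, where 12.4% of all genes were called, among them Commd4 by 1.03, Commd3 by 0.71, Commd8 by 0.68 and Vps26c by 0.59, and the median was -0.45 beside -0.10 over all genes. Ccdc22 itself was at 0.35 in that contrast and did not pass (adjusted p = 0.13). Commd4 lost its call without unstimulated cKO replicate 2, either stimulated cKO library, unstimulated WT replicate 1 or stimulated WT replicate 2 (adjusted p up to 0.0862), Commd8 without any 1 cKO library (up to 0.0955), and Vps26c without any 1 cKO library, unstimulated WT replicate 1 or stimulated WT replicate 2 (up to 0.137).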

How the data were processed

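PolyA RNA of mouse Treg was measured in 12 samples, grouped by their titles. The authors deposited FPKM in 2 tables, per the file headers. HISAT2 2.2.1 and StringTie 2.1.1 are named, with the builds mm10 and hg19, per the submitters' processing notes; which tool and annotation made the tables and whether strand was used are not given in the sources used here. In vivo columns name the genotype only, so first and second follow the table's order. A further 4 columns of no sample were not used.

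In vivo Entrez numbers were matched to RefSeq symbols (16196 of 16232); in vitro, 23204 of 24421 names were RefSeq symbols and 1069 synonyms. FPKM are not counts and depth is unknown, so no counting interval was computed. Each table was fitted separately with limma 3.58.1 in R 4.3.3 on log2(FPKM + 1), moderated with a trend on the mean level and tested on both sides, keeping genes that averaged 1 FPKM or more (10415 in vivo, 10710 in vitro); the 8 in vitro samples shared a model of 4 groups. A call is an adjusted p under 0.05, corrected by Benjamini-Hochberg across every gene of the fit. Fold changes on this scale understate those of low genes. The fits were run on simulated data with independent noise in each library, which cannot check the effect of features shared by same-numbered libraries. Intervals are at 95%.

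Members, gene lists and tests were chosen with earlier results of these data known. All 10 genes are named in every contrast. Of other lists, up to 4 called genes with the largest change are named, or up to 2 uncalled genes with the smallest p, as values; the 5 nearest patterns need a mean of at least 5 FPKM. The neighbours named by value are those called or at the ends of the range. Coordinates are from the GENCODE annotation of GRCm38, promoters from RefSeq. Some marker genes are not reported here. Alternatives changed the pseudocount, filter, scaling, trend, block or samples; fits without both WT replicate 2 or both cKO replicate 1 libraries, or with same-numbered libraries averaged, were added after seeing the data.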

Additional observations from a re-analysis of the deposited data

Results flagged for a closer look

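The log2 fold change of Foxp3 in cKO over WT had opposite signs in vivo and in vitro, and no difference was shown in vivo. Its log2 fold change was 0.12 in vivo, with both cKO libraries above both WT libraries, and -1.31 unstimulated and -1.26 stimulated in vitro, with both cKO libraries below both WT libraries. The in vivo value did not pass (limma adjusted p = 0.582). The tables were normalized separately, and the difference between them was not tested.

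Ccdc22 had log2 fold changes of opposite sign on stimulation in the 2 genotypes. The value was 0.93 in WT, where both stimulated libraries were higher, and -0.23 in cKO, where both were lower. Neither passed (limma adjusted p = 0.0533 in WT and 0.542 in cKO). The interaction had an unadjusted p of 0.00279 and did not pass over all genes (limma adjusted p = 0.999).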

How the results depend on the processing

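Over the 80 values of the 10 genes (each gene in 8 contrasts) and 1580 alternatives, 1448 kept their direction and their side of the threshold, 20 lost a call, 25 gained one and 87, in 29 values, turned sign. None of those 87 was called before or after. Most of the 80 values were not called at the start, so most of the 1448 are uncalled values that stayed uncalled. The 20 lost calls fell among the few values that were called. The 52 values of other named genes gave 1021 alternatives, of which 0 turned sign, 173 lost a call and 28 gained one. The cause of these changes was not tested. Depth is unknown, which limits what low genes can show.

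Foxp3 in vitro averaged over both conditions was -1.19 and no longer called without both cKO replicate 1 libraries (limma adjusted p = 0.215), a fit that called 0 genes in all; in the same fit its response in cKO was 1.68 and lost (adjusted p = 0.249). With same-numbered libraries of a genotype averaged first it was -1.29 and not called (0.119), and 0 of the 10 genes and 0 of all genes were. Unstimulated, it was -1.33 and called without both WT replicate 2 libraries (adjusted p = 0.0386). Leaving out single libraries, Foxp3 ranged from -1.41 to -1.20 unstimulated, from -1.46 to -1.07 stimulated, from -1.38 to -1.19 averaged, and from 1.60 to 1.80 for stimulation in cKO.

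The number of the 10 genes called for genotype was 1 unstimulated without both WT replicate 2 libraries (52 of all genes), and averaged 1 with no filter (35) and 0 without both cKO replicate 1 libraries (0). For stimulation in WT it was 3 with a floor of 5 FPKM (326), 2 with haemoglobin genes removed (303) and 2 without both WT replicate 2 libraries (260). For stimulation in cKO it was 2 with only the 4 samples compared (1918), 2 without both WT replicate 2 libraries (1932) and 0 without both cKO replicate 1 libraries (1), and averaged over genotypes 1 with no filter (780) and 1 without both cKO replicate 1 libraries (128). Leaving out single libraries, it ran from 0 to 4 in vivo (17 to 1994 of all genes), 0 to 1 unstimulated (0 to 28), 0 to 2 stimulated (0 to 197), 0 to 2 averaged (7 to 329), 1 to 3 for stimulation in WT (95 to 966), 0 to 1 in cKO (12 to 660) and 1 to 3 averaged (453 to 2260).

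With the replicate number as a block, the genes called for stimulation in WT were 3 instead of 1, Ccdc22 (adjusted p = 0.0436) and Ikzf4 (0.0371) joining Foxp3 (288 of all genes), and no other call among the 10 genes changed, while of the other named genes Hdac7 gained a genotype call (0.0384). The numbers are not shown to pair samples across genotypes: replicate 1 minus replicate 2 correlated between groups at 0.42 within cKO, 0.24 within WT and between -0.14 and 0.06 across genotypes. No paired analysis was possible in vivo because those columns carry no replicate number.

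Over all genes tested, limma called 39 in vivo (0 with no filter to 1994 without the second cKO library), 8 unstimulated (0 without both cKO replicate 1 libraries to 52 without both WT replicate 2 libraries), 2 stimulated (0 with no filter to 197 without stimulated WT replicate 1) and 116 averaged (0 without both cKO replicate 1 libraries to 329 without stimulated WT replicate 1). For stimulation the counts were 260 in WT (32 to 966), 490 in cKO (1 to 1932) and 1330 averaged (128 to 2260), each lowest without both cKO replicate 1 libraries, and the interaction gave 0 (0 to 5). Scaling alone ended the genotype call of Swap70 (adjusted p = 0.0534, common sum) and, with a common sum, the stimulation calls of Stat5a (0.177), Cdk2 (0.0575), Usp21 (0.0512) and Vps26c (0.0674).

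Signs turned as follows. Rescaled to a common sum, the log2 value was for genotype unstimulated Cbfb -0.024, for genotype stimulated Ikzf4 -0.022, Cbfb -0.051 and Foxp1 -0.053, for averaged genotype Cbfb -0.038, for stimulation in WT Foxo1 0.0037 and Foxp1 0.014 and for averaged stimulation Foxp1 0.095. With median-of-ratios scaling, the log2 value was for averaged stimulation Foxp1 0.062 and for the interaction Ikzf2 0.073, Cbfb 0.060 and Foxo1 0.074. With quantile normalization, the log2 value was for averaged genotype Foxp1 0.0026, for averaged stimulation Foxp1 0.043 and for the interaction Foxp3 -0.11, Ikzf2 0.011, Cbfb 0.0060 and Foxo1 0.0089. Scaled to the T cell reference genes, the log2 value was for the interaction Runx1 -0.0098. With haemoglobin genes removed, the log2 value was for stimulation in WT Foxo1 0.0057 and Foxp1 0.016 and for averaged stimulation Foxp1 0.093. Without both WT replicate 2 libraries, the log2 value was for genotype unstimulated Cbfb -0.14, for averaged genotype Cbfb -0.0073 and Foxp1 0.040, for stimulation in WT Runx1 -0.032 and Cbfb -0.12 and for the interaction Cbfb 0.26 and Foxo1 0.077. Without both cKO replicate 1 libraries, the log2 value was for genotype unstimulated Cbfb -0.016, for genotype stimulated Cbfb -0.030, for averaged genotype Cbfb -0.023, for stimulation in cKO Runx1 -0.058, for averaged stimulation Runx1 -0.0089 and Foxp1 0.014 and for the interaction Ikzf2 0.11, Runx1 -0.099 and Foxo1 0.030.

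Leaving out single libraries, these ranges crossed 0. For genotype in vivo, the range was Ccdc22 -0.012 to 0.070, Runx1 -0.084 to 0.30, Cbfb -0.0081 to 0.19, Bach2 -0.0065 to 0.16 and Foxp1 -0.23 to 0.27. For genotype unstimulated, the range was Cbfb -0.14 to 0.21. For genotype stimulated, the range was Ikzf4 -0.11 to 0.17, Cbfb -0.12 to 0.12, Bach2 -0.080 to 0.29 and Foxp1 -0.21 to 0.21. For averaged genotype, the range was Cbfb -0.068 to 0.11 and Foxp1 -0.18 to 0.030. For stimulation in WT, the range was Ikzf2 -0.080 to 0.72, Runx1 -0.0015 to 0.083, Foxp1 -0.31 to 0.11 and Satb1 -0.15 to 0.25. For stimulation in cKO, the range was Runx1 -0.11 to 0.21 and Foxp1 -0.021 to 0.12. For averaged stimulation, the range was Runx1 -0.034 to 0.12 and Foxp1 -0.13 to 0.080. For the interaction, the range was Foxp3 -0.15 to 0.24, Ikzf2 -0.42 to 0.38, Runx1 -0.15 to 0.16, Cbfb -0.21 to 0.14, Bach2 -0.35 to 0.022, Foxo1 -0.097 to 0.054 and Foxp1 -0.056 to 0.37.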
